A study of Mus musculus with 18 samples.

Results

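BAFF receptors and the BCL2 family of survival and death proteins were examined in mouse B cells as 10 genes, chosen by symbol from the deposited table of 55491 genes. The genes were *Tnfrsf13b* (TACI) and *Tnfrsf13c* (BAFF receptor), the anti-apoptotic *Bcl2*, *Bcl2l1* (BCL-XL), *Mcl1*, and *Bcl2a1b* (an A1 copy), and the pro-apoptotic *Bax*, *Bcl2l11* (BIM), *Bbc3* (PUMA), and *Pmaip1* (NOXA). Each of the 10 symbols matched 1 row, each row passed the filter on low counts in all 11 comparisons, and 0 of the 10 genes was at 0 in any library. Bulk RNA-Seq covered 18 libraries, with 3 biological replicates for each of 6 groups. Female BALB/cJ mice were all sensitized i.p. with 20 μg OVA (the egg allergen ovalbumin) and 1 mg alum on days 0 and 14. They received i.v. treatment on days 28 and 42 and were 10 to 12 weeks old on day 44. The treatments were 100 μL PBS, 100 μg soluble OVA, or 2.5 mg OVA NPs, polymer nanoparticles that carry OVA inside. On day 44, B cells were taken from the spleen and from the Peyer’s patches (PPs), the lymphoid follicles of the small intestine, by magnetic removal of other cells. No group of unsensitized mice was analysed here, so PBS-treated mice are the sensitized controls. PPs were digested with enzymes and spleens were dissociated mechanically, so tissue and dissociation method cannot be told apart in any PP to spleen comparison. Bulk libraries also cannot tell fewer cells of a type from less RNA per cell.

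BAFF, a TNF family cytokine made largely by myeloid and stromal cells, keeps mature B cells alive. The BAFF receptor signals mainly through the alternative NF-κB pathway, in which TRAF3, TRAF2, and the cellular inhibitors of apoptosis restrain the kinase NIK until a receptor is engaged, and TACI, which binds both BAFF and APRIL, is abundant on marginal zone and antibody-secreting cells. Survival is decided at the mitochondrial outer membrane, where BCL2, BCL-XL, MCL1, and A1 hold back the pore-forming BAX and BAK, and where the BH3-only proteins BIM, PUMA, NOXA, BID, BAD, and BMF neutralize the protective members or activate the pore formers. Germinal center B cells are known for low BCL2 and for death by default unless they receive help, whereas resting follicular B cells carry abundant BCL2.

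Library totals ran from 14177253 counts (PP, PBS-treated, replicate 2) to 30052297 counts, and a level of 3 counts equalled 0.105 to 0.220 normalized CPM, a limit for counting error only. Normalized CPM are counts divided by a library total that TMM rescaled over the 18 libraries. B cell markers were high throughout, with *Ms4a1*, which encodes CD20, at 945 to 1472 normalized CPM, and 8 T cell markers summed to 6.05 to 10.1 in spleen and 28.4 to 87.7 in PP. Summed neutrophil markers lay between 165 and 585 in spleen and between 0.979 and 53.8 in PP. Of these, *S100a8* was at 4.46 to 19.7 in spleen and at 0 in all 6 PBS and soluble OVA libraries of PP. Mitochondrial transcripts took 2.82% to 3.41% of spleen counts, 4.97% to 7.67% of counts in PP PBS and soluble OVA libraries, and 9.08% to 9.80% in PP OVA NP libraries.

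Positions of 9 of the genes are given on the mouse genome (GRCm38, GENCODE M21), each spanning a whole protein-coding gene. *Bcl2* spans chr1:106538178-106714274 on the minus strand and *Tnfrsf13b* chr11:61126755-61149372 on the plus strand. *Tnfrsf13c* lies at chr15:82221743-82224369, *Mcl1* at chr3:95658788-95663176, *Bcl2l1* at chr2:152780668-152831728, and *Bcl2l11* at chr2:128126038-128162547. *Bax* lies at chr7:45461697-45466898, *Bbc3* at chr7:16308393-16318205, and *Bcl2a1b* at chr9:89199209-89207827. Reads of *Bcl2a1b* are the least certain, because the mouse carries near-identical A1 copies on chromosome 9. Over 516 coding bases, *Bcl2a1b* differs from *Bcl2a1d* at 6 bases (98.8% identical) and from *Bcl2a1a* at 11 bases (97.9% identical). The first 60 coding bases, the stretch of this length with the most differences, hold 6 positions that vary among the copies and are shown because reads can be told apart only at such positions, which are in capitals.
Bcl2a1b: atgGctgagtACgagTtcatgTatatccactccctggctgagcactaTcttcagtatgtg
Bcl2a1d: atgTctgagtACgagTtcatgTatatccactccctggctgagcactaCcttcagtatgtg
Bcl2a1a: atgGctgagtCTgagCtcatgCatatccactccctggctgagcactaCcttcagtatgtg
*Bcl2a1b* also shares 401 exonic bases with *Gm29094* on the same strand, which reached at most 1.01 normalized CPM. *Bcl2* shares 558 with the antisense *D630008O14Rik*, at most 0.871, and *Bax* shares 192 with *Gm45808*, at most 0.324. Whether counting used strand is not given in the sources used here.

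Promoters (250 bases before to 50 after a RefSeq start, GRCm38.p6) matched 9 of the 10 genes in 14 windows. The windows of *Bcl2* and *Tnfrsf13b* are shown because these genes were lower after treatment in more comparisons than the others apart from *Pmaip1*. Fixed motifs were searched on both strands: a GC box (GGGCGG), an NF-κB match (GGGANNNNCC), a TATA box (TATAAA), and the core of the cAMP response element (TGACG). A GC box and an NF-κB match can share letters, although the windows shown hold no such pair.
Bcl2, chr1:106714241-106714540, minus strand, GC boxes in capitals: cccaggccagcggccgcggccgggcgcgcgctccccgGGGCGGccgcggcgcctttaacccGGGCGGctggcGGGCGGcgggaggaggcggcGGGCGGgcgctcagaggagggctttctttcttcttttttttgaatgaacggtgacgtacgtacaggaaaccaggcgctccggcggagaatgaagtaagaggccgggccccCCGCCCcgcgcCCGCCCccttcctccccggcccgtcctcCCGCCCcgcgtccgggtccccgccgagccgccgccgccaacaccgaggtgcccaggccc
Tnfrsf13b, chr11:61126505-61126804, plus strand, NF-κB match in capitals: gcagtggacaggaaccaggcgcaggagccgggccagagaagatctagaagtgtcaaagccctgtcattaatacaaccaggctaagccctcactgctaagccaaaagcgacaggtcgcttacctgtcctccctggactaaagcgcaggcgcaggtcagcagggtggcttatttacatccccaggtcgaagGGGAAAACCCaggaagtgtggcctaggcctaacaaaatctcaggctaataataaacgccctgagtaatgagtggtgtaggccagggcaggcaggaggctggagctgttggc
The *Bcl2* window held 7 GC boxes, 1 TGACG, and 0 matches to the other motifs. The *Tnfrsf13b* window held 1 NF-κB match and 0 GC boxes. Of 32851 promoters of the same length, 35.7% held a GC box, 20.7% an NF-κB match, 20.8% a TGACG, and 13.6% a TATA box, which none of the 14 windows held. The other 12 windows held 0 to 7 GC boxes, and 1 window each of *Bcl2l11*, *Bbc3*, and *Bcl2a1b* held NF-κB matches (1, 3, and 1). A match describes letters only, and no binding was measured.

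Per kilobase of exon, *Mcl1* was the most abundant of the 10 genes in PBS spleen at 329 normalized CPM per kb, followed by *Tnfrsf13c* at 237 and *Tnfrsf13b* at 118. *Bax* stood at 42.1, *Bcl2a1b* at 23.2, *Bcl2* at 19.5, *Pmaip1* at 7.60, and *Bcl2l11* at 6.14 on this per-kb scale, and *Bbc3* and *Bcl2l1* were lowest at 1.60 and 1.11. With the longest transcript as the length, *Bcl2* moved above *Bcl2a1b*, *Bcl2l11* above *Pmaip1*, and *Bcl2l1* above *Bbc3*. In PBS PP, *Tnfrsf13c* led at 258 normalized CPM per kb, with *Mcl1* at 177, and *Pmaip1* (25.5) lay above *Bcl2* (11.3). Across the 6 groups, mean log2 levels varied most for *Pmaip1* (a range of 2.06), *Bcl2* (1.85), and *Bcl2l1* (1.78), and least for *Tnfrsf13c* (0.23).

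**Figure D1:**
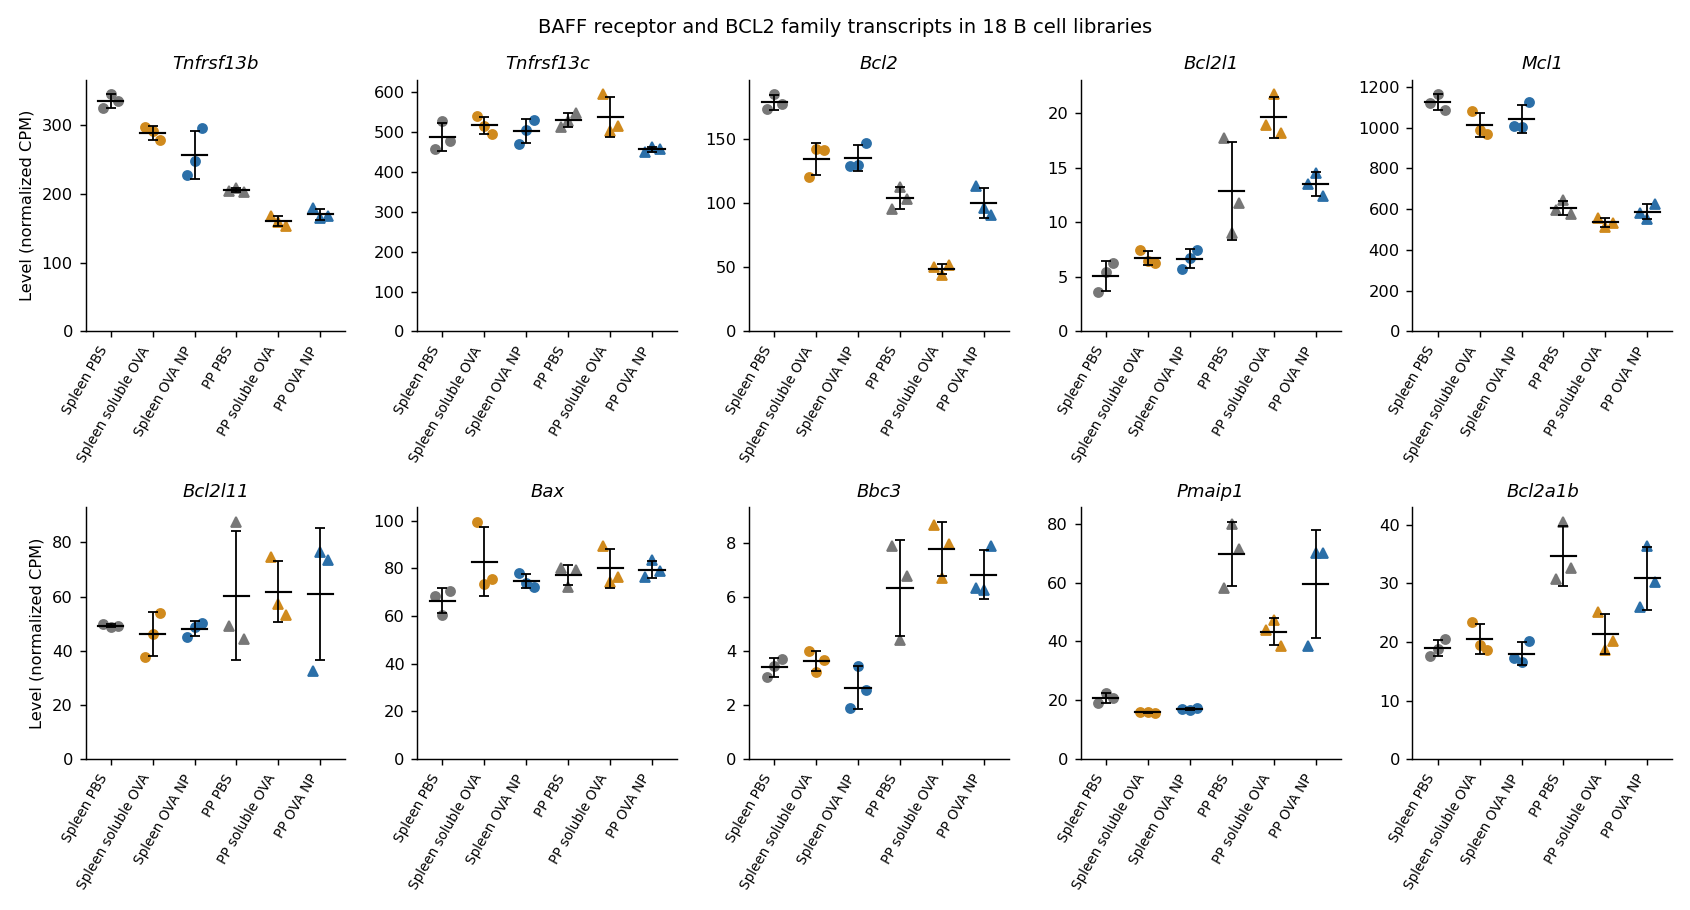
Levels of the 10 genes in normalized CPM (y axes, each from 0) in the 6 groups (x axis), with circles for spleen libraries, triangles for PP libraries, horizontal bars for means, and vertical bars for SD (n = 3). *Bcl2* stands at 44.1 to 52.0 in soluble OVA PP and at 90.6 to 113 in OVA NP PP, *Mcl1* is lower in all PP than in all spleen libraries, and *Tnfrsf13c* stays within 450.0 to 595 in all libraries.

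The treatment comparisons ask how B cells of allergic mice differ after OVA NPs, after soluble OVA, and between these therapies. In spleen, OVA NP treatment lowered 3 of the 10 genes (*Bcl2*, *Tnfrsf13b*, and *Pmaip1*) and raised 0, where 15.0% of all tested genes changed (8.60% rose and 6.35% fell). Soluble OVA lowered 2 in spleen (*Bcl2* and *Pmaip1*) and raised 0, against 17.2% changed, 10.5% higher and 6.72% lower over all genes. The same PBS libraries serve both comparisons. In PP, soluble OVA lowered 4 genes (*Bcl2*, *Bcl2a1b*, *Pmaip1*, and *Tnfrsf13b*) and raised 0, against 27.4% changed, 13.5% higher and 13.9% lower. OVA NP treatment changed 0 of the 10 in PP compared with PBS, where edgeR called 0% of all genes. At an unadjusted p under 0.05, 2 of the 10 and 1573 of all genes passed there, and DESeq2 called 0 of the 10 and 149 of all genes. Compared with soluble OVA, OVA NP–treated PP had *Bcl2* and *Bcl2a1b* higher and *Bcl2l1* lower (3 of 10, against 30.1% of all genes, 13.8% higher and 16.3% lower). In that comparison T cell markers were higher for 6 of 8 genes and lower for 0 (summed 28.4 to 39.6 normalized CPM with soluble OVA and 68.3 to 87.7 with OVA NPs), and monocyte and macrophage markers for 3 of 7 and lower for 0 (106 to 129 and 159 to 251), and their part in the differences was not tested. In spleen 0 of the 10 differed between the therapies (against 0.238%). In that spleen comparison 0 of the 10 and 1199 of all genes had an unadjusted p under 0.05, and DESeq2 called 0 of the 10 and 113 of all genes. Changes were called by edgeR’s quasi-likelihood test at a Benjamini-Hochberg adjusted p under 0.05 over all genes with an absolute log2 fold change above 0.25, and all adjusted p values given here come from it unless DESeq2 is named.

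Groups of 3 libraries did not overlap for 4 of the 10 genes between OVA NP and PBS spleen (37.2% of all genes), 6 between soluble OVA and PBS spleen (37.8%), 2 between OVA NP and PBS PP (17.3%), 6 between soluble OVA and PBS PP (45.1%), and 4 between OVA NP and soluble OVA PP (48.4%). The median log2 fold change of the 10 genes was -0.083, -0.0078, -0.032, -0.090, and 0.052 in these comparisons, beside 0.00062, -0.0082, -0.0074, -0.017, and 0.025 over all genes. Between OVA NP and soluble OVA spleen, groups did not overlap for 1 of the 10 genes (*Pmaip1*), against 14.2% of all genes. The median there was -0.022, beside -0.0035 over all genes. The 10 genes hold opposing functions, so their median describes no pathway activity.

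**Figure D2:**
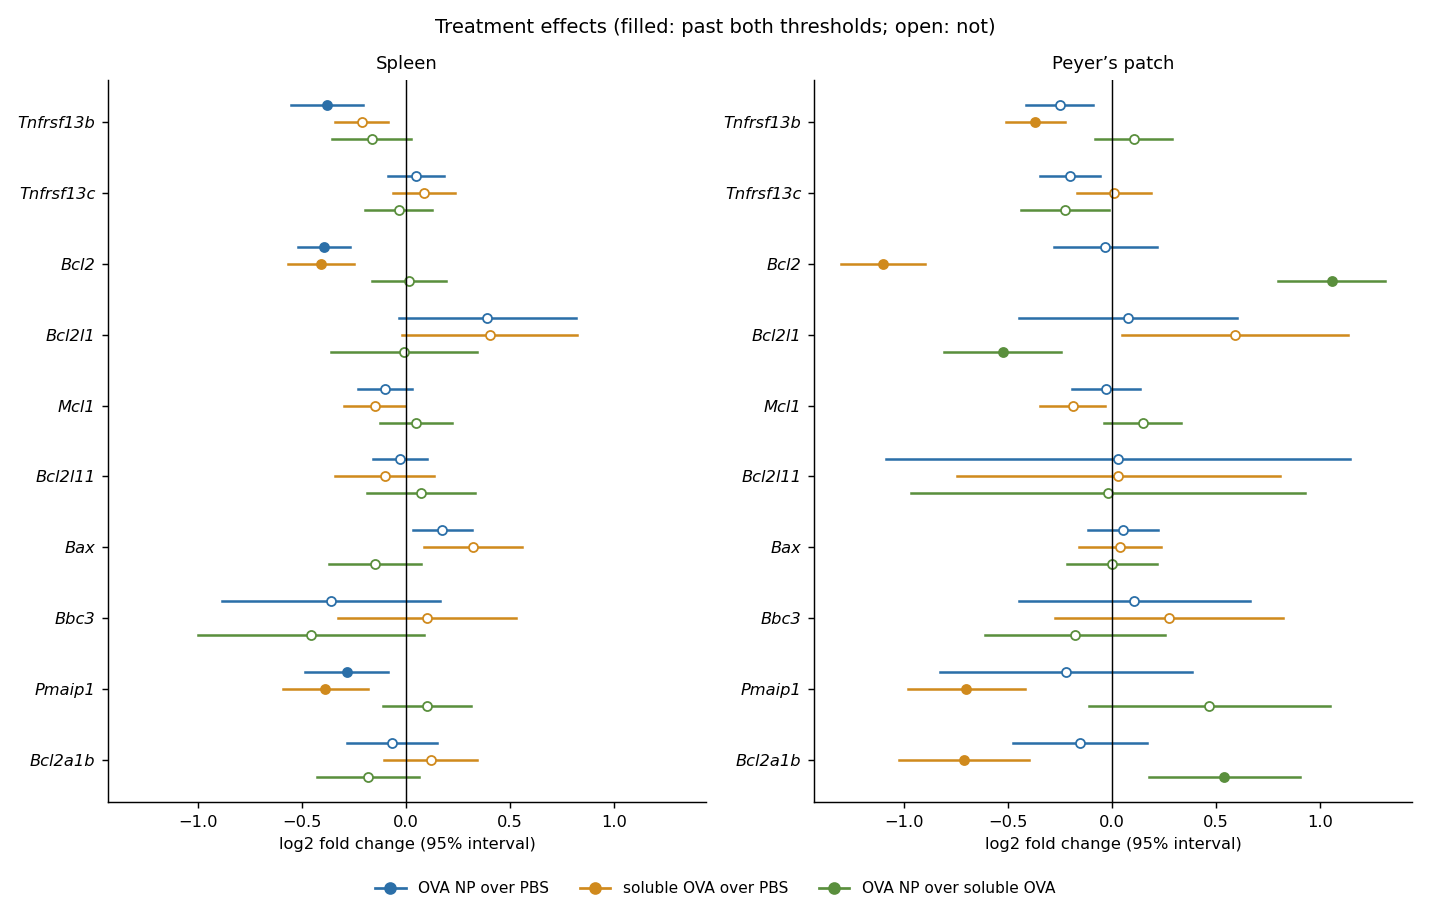
Log2 fold changes (x axes) of the 10 genes (y axes) in spleen (left) and PP (right) for OVA NP over PBS, soluble OVA over PBS, and OVA NP over soluble OVA, with 95% intervals as lines and filled points past both thresholds. *Bcl2* in PP lies at -1.10 for soluble OVA over PBS, -0.033 for OVA NP over PBS, and 1.05 for OVA NP over soluble OVA.

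*Tnfrsf13b*, the TACI receptor for BAFF and APRIL, fell with OVA NP treatment in spleen and with soluble OVA in PP, and was lower in PP than in spleen under every treatment. Its levels in PBS spleen were 325, 345, and 336 normalized CPM, in soluble OVA spleen 298, 292, and 278, and in OVA NP spleen 228, 248, and 295. All PBS libraries lay above all treated ones, and the therapies overlapped. The log2 fold change with OVA NPs in spleen was -0.38 ± 0.079 (± SE, n = 3 per group, adjusted p = 0.00627), a 1.30-fold decrease. For soluble OVA the log2 fold change was -0.21 ± 0.060 (adjusted p = 0.0221), which is inside the fold change cutoff. In PP, levels were 205, 208, and 202 with PBS, 168, 159.7, and 153 with soluble OVA, and 179.8, 165, and 168 with OVA NPs. Both treated groups lay below PBS without overlap, and *Tnfrsf13b* fell with soluble OVA (-0.37 ± 0.063, adjusted p = 0.00276). With OVA NPs the log2 fold change was -0.25 ± 0.071 (95% interval -0.41 to -0.091, adjusted p = 0.348). The effect of treatment did not pass the test of a difference between tissues for OVA NPs (0.14 ± 0.11, adjusted p = 0.559) or soluble OVA (-0.15 ± 0.084, adjusted p = 0.331). Summed marginal zone markers, 8 genes of a subset rich in TACI, were 2164 to 2359.8 normalized CPM in PBS, 1909 to 2109.8 in soluble OVA, and 1861 to 2145 in OVA NP spleen, with 4 of the 8 lower and 1 higher after either treatment. In PP the sums of this list were 1166 to 1265, 961 to 1022, and 1153 to 1232. There, 4 of the 8 were lower and 1 higher with soluble OVA over PBS, and 0 passed with OVA NPs over PBS. Plasma cell markers, 8 genes of antibody-secreting cells, were higher for 3 of 8 after either treatment in spleen, with 1 lower after soluble OVA. Their sums were 429.6 to 487 normalized CPM in PBS, 552 to 625 in soluble OVA, and 664 to 684 in OVA NP spleen. In PP the sums were 1008 to 1185, 986 to 1127, and 1096 to 1203 in the same order. The part of both lists in the *Tnfrsf13b* differences was not tested.

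*Tnfrsf13c*, the BAFF receptor itself, passed the test in 0 of the 11 comparisons. Levels were 456, 526, and 478 normalized CPM in PBS spleen, 538, 515, and 494 in soluble OVA spleen, and 469.8, 505, and 530.1 in OVA NP spleen. In PP they were 512, 528, and 548 with PBS, 595, 503, and 514 with soluble OVA, and 450.0, 461, and 457 with OVA NPs. OVA NP–treated PP was the lowest group and did not overlap PBS or soluble OVA PP, but the log2 fold changes of -0.20 ± 0.064 over PBS (adjusted p = 0.379) and -0.23 ± 0.093 over soluble OVA (adjusted p = 0.0960) did not pass, and the second passed when OVA NP replicate 1 was left out (-0.29, adjusted p = 0.0347). In spleen the 95% interval for OVA NP over PBS was -0.085 to 0.19, and for soluble OVA over PBS -0.063 to 0.23. In order of group means, each group overlapped its neighbour.

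Another list held 12 genes of BAFF and alternative NF-κB signalling. It held the ligands *Tnfsf13b* and *Tnfsf13*, their receptor *Tnfrsf17*, and *Cd40*, a receptor that binds neither ligand. It also held the signalling genes *Traf2*, *Traf3*, *Map3k14*, *Chuk*, *Nfkb2*, *Relb*, *Birc2*, and *Birc3*. Genes of this list were lower wherever they passed the test against PBS. In spleen, 4 of 11 tested fell with OVA NPs and 0 rose, including *Cd40* (-0.30 ± 0.067, adjusted p = 0.00571), *Birc3*, an inhibitor of apoptosis (-0.29 ± 0.063, adjusted p = 0.00518), and *Map3k14*, which encodes NIK (-0.27 ± 0.074, adjusted p = 0.0196). With soluble OVA, 3 of 10 fell in spleen and 0 rose (*Nfkb2*, *Map3k14*, and *Relb*, from -0.34 to -0.28). In PP, 6 of 11 fell with soluble OVA and 0 rose. *Birc3* went from a mean of 236 to 138 normalized CPM (-0.79 ± 0.11, adjusted p = 0.000917). *Nfkb2*, the precursor of the alternative NF-κB subunit, went from 239 to 143 (-0.75 ± 0.077, adjusted p = 0.000200). *Relb*, its partner, went from 101 to 65.6 (-0.64 ± 0.085, adjusted p = 0.000728). With OVA NPs in PP, 0 of 11 passed compared with PBS, and 5 of 11 were higher than with soluble OVA with 0 lower, led by *Nfkb2* (0.74 ± 0.084), *Birc3* (0.59 ± 0.093), and *Traf3* (0.49 ± 0.084). The list’s median log2 fold change was -0.42 for soluble OVA over PBS in PP, beside -0.017 over all genes. The decrease with soluble OVA was larger in PP than in spleen for 3 of 11 (*Birc3*, *Nfkb2*, and *Cd40*) by the tissue by treatment test, with differences of -0.53 ± 0.13, -0.41 ± 0.11, and -0.38 ± 0.11 and adjusted p values of 0.0240, 0.0344, and 0.0489. For OVA NPs 0 of 11 passed that test.

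*Bcl2*, the founding anti-apoptotic gene, had the largest log2 fold change of the 10 genes over the 6 treatment comparisons. In PP its levels were 95.3, 112, and 103 normalized CPM with PBS, 49.9, 44.1, and 52.0 with soluble OVA, and 113, 96.3, and 90.6 with OVA NPs. All soluble OVA libraries lay far below both other groups, which overlapped. *Bcl2* fell 2.14-fold with soluble OVA (-1.10 ± 0.089, n = 3 per group, adjusted p = 9.02e-05) and was 2.08-fold higher with OVA NPs than with soluble OVA (1.05 ± 0.11, adjusted p = 0.000446). Between OVA NPs and PBS the log2 fold change was -0.033 ± 0.11, with a 95% interval of -0.28 to 0.21. In spleen the levels were 173, 185, and 177 with PBS, 120.2, 142, and 141 with soluble OVA, and 129, 129.6, and 147 with OVA NPs. All treated spleen libraries lay below all PBS ones, and *Bcl2* fell 1.31-fold with OVA NPs (-0.39 ± 0.058, adjusted p = 0.000316) and 1.33-fold with soluble OVA (-0.41 ± 0.073, adjusted p = 0.00139). The therapies differed by 0.015 ± 0.083 in spleen (95% interval -0.16 to 0.19, adjusted p = 0.968).

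The decrease of *Bcl2* with soluble OVA was larger in PP than in spleen (a difference of -0.69 ± 0.12 on the log2 scale in 12 libraries, adjusted p = 0.00294), where 2 of the 10 genes and 6.84% of all genes passed (1.77% with a higher and 5.07% with a lower change in PP). For OVA NPs the difference between tissues was 0.38 ± 0.13 (adjusted p = 0.117), where 0 of the 10 and 4.42% of all genes passed (0.872% higher and 3.54% lower). In that comparison 2 of the 10 and 3106 of all genes had an unadjusted p under 0.05, DESeq2 called 0 of the 10 and 1290 of all genes, and *Bcl2* passed with no count filter (0.43, adjusted p = 0.0330). Ordered by mean, *Bcl2* ran from PBS spleen (178 ± 6.07, SD, n = 3) through OVA NP spleen (135 ± 10.2) and soluble OVA spleen (134 ± 12.3) to PBS PP (104 ± 8.46), OVA NP PP (100.1 ± 11.9), and soluble OVA PP (48.7 ± 4.11). Neighbours overlapped between the treated spleen groups and between PBS and OVA NP PP, and at no other step.

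Germinal center markers were higher than with PBS in both treated spleen groups and in soluble OVA PP, the groups in which *Bcl2* fell. The 10 genes of that list, which include the repressor *Bcl6*, summed to 113 to 186 normalized CPM in PBS, 395 to 561 in soluble OVA, and 379 to 412 in OVA NP spleen. In PP they summed to 1194 to 1423 with PBS, 2181 to 2250.0 with soluble OVA, and 899 to 1359.6 with OVA NPs. In spleen 8 of 9 tested rose with OVA NPs and 10 of 10 with soluble OVA, in PP 9 of 10 rose with soluble OVA, 0 of 10 changed with OVA NPs over PBS, and 9 of 10 were lower with OVA NPs than with soluble OVA. *Bcl6* was at 179 to 213 in PBS, 299 to 336 in soluble OVA, and 146 to 212 in OVA NP PP. Proliferation genes (8 in the list) summed to 1584 to 1968, 3648 to 3931, and 1295 to 1872 in the same PP groups, and all 8 rose with soluble OVA in PP and with both treatments in spleen. The part of these lists in the *Bcl2* differences was not tested.

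**Figure D3:**
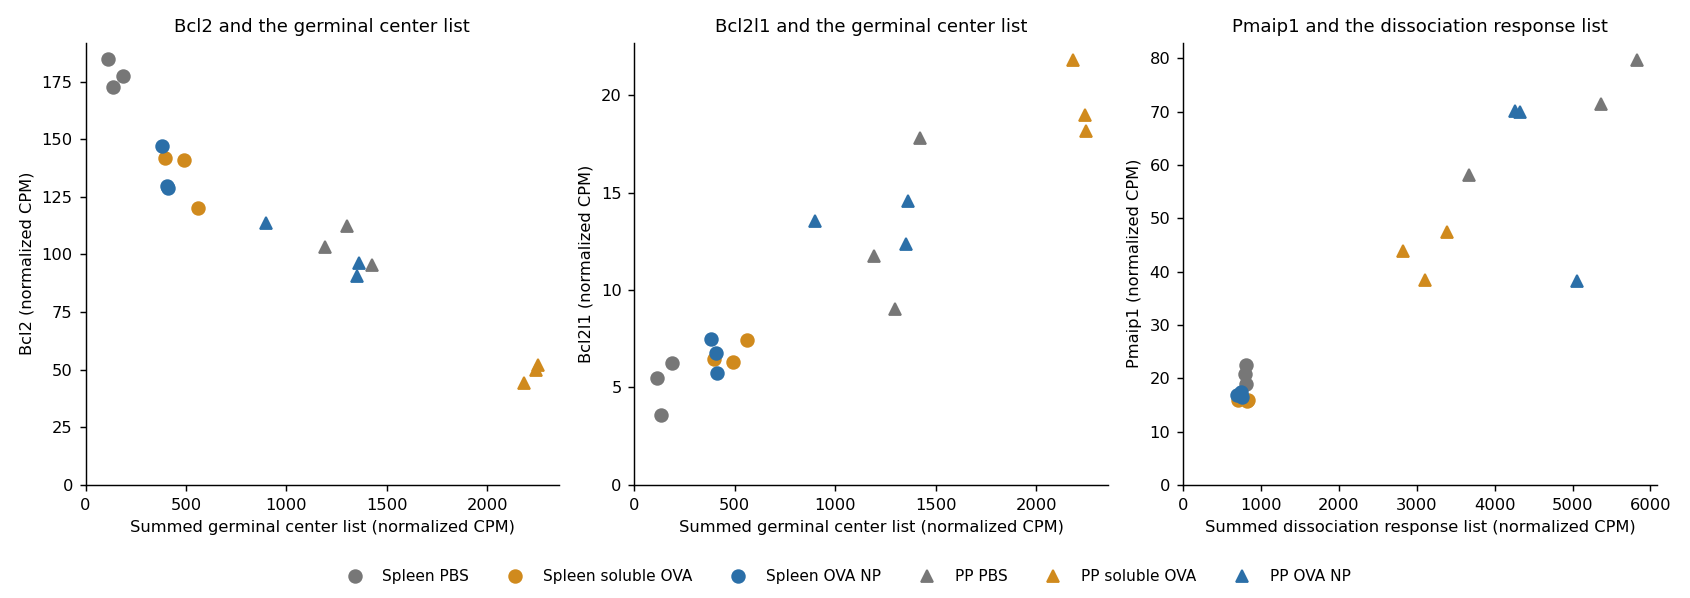
Each point is 1 of 18 libraries, with circles for spleen, triangles for PP, and colors for treatment. *Bcl2* (left) and *Bcl2l1* (middle) are plotted against the summed germinal center list and *Pmaip1* (right) against the summed dissociation response list, all in normalized CPM. The 3 soluble OVA PP libraries combine the highest germinal center sums (2181 to 2250.0) with the lowest *Bcl2*, and the groups share tissue and treatment, so the points are not independent.

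*Bcl2l1*, which encodes BCL-XL, was scarce in spleen and higher in PP. Spleen levels were 3.60, 5.49, and 6.24 normalized CPM with PBS, 7.43, 6.47, and 6.28 with soluble OVA, and 5.73, 6.76, and 7.48 with OVA NPs. PP levels were 17.8, 9.01, and 11.7 with PBS, 19.0, 21.8, and 18.2 with soluble OVA, and 13.6, 14.6, and 12.4 with OVA NPs. Soluble OVA PP stood above every other library. *Bcl2l1* was lower with OVA NPs than with soluble OVA in PP (-0.53 ± 0.12, adjusted p = 0.0118). For soluble OVA over PBS the log2 fold change was 0.59 ± 0.23 (adjusted p = 0.0993), which passed in DESeq2 (adjusted p = 0.0435) and without PBS replicate 1, the PBS library nearest the treated ones (0.91, adjusted p = 0.0102). In spleen the log2 fold changes of 0.39 ± 0.20 with OVA NPs and 0.40 ± 0.20 with soluble OVA did not pass (adjusted p = 0.191 and 0.168).

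*Mcl1*, a short-lived protector that mature and germinal center B cells require, passed in 0 of the 6 treatment comparisons. Spleen levels were 1121, 1165, and 1085 normalized CPM with PBS, 1081, 987, and 970.1 with soluble OVA, and 1007, 1002, and 1123 with OVA NPs. PP levels were 596, 643, and 574 with PBS, 558, 512, and 534 with soluble OVA, and 582, 553, and 625 with OVA NPs. Soluble OVA libraries lay below PBS libraries without overlap in both tissues, with log2 fold changes of -0.15 ± 0.068 in spleen (adjusted p = 0.143) and -0.19 ± 0.069 in PP (adjusted p = 0.0712). OVA NP groups overlapped PBS in both tissues (-0.10 ± 0.060 and -0.030 ± 0.072).

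*Bcl2a1b*, an A1 copy that NF-κB signalling is known to induce, fell with soluble OVA in PP. PP levels were 30.8, 40.5, and 32.6 normalized CPM with PBS, 25.1, 18.6, and 20.1 with soluble OVA, and 25.9, 36.4, and 30.1 with OVA NPs. Soluble OVA libraries lay below both other groups, although the highest of them came within 1 normalized CPM of the lowest OVA NP library. The log2 fold change was -0.71 ± 0.14 (adjusted p = 0.00513), a 1.64-fold decrease. OVA NPs over soluble OVA gave 0.54 ± 0.16 (adjusted p = 0.0321), a call that was lost when soluble OVA replicate 2 or 3 or OVA NP replicate 2 or 3 was left out (adjusted p from 0.0773 to 0.124) and when the 3 copies were summed (0.47, adjusted p = 0.0598). OVA NPs over PBS gave -0.15 ± 0.14 (adjusted p = 0.737). Spleen levels were 17.7, 18.8, and 20.5 with PBS, 23.4, 19.5, and 18.7 with soluble OVA, and 17.2, 16.6, and 20.2 with OVA NPs, overlapping throughout, and the effect of soluble OVA differed between tissues (-0.82 ± 0.19, adjusted p = 0.0160). Without PBS spleen replicate 1 or soluble OVA PP replicate 3 that difference did not pass (adjusted p = 0.0576 and 0.0638).

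The other copies also fell with soluble OVA in PP, within the limits that near-identical sequences set on read assignment. With soluble OVA, *Bcl2a1d* went from a mean of 32.7 ± 2.70 to 22.4 ± 4.28 normalized CPM (SD, n = 3; -0.56 ± 0.14, adjusted p = 0.0143) and *Bcl2a1a* from 6.15 ± 1.89 to 3.49 ± 0.530 (-0.84 ± 0.28, adjusted p = 0.0498). In spleen *Bcl2a1a* was at 0.285 to 1.37 normalized CPM over the 9 libraries, against 3.09 to 8.20 in PP. For OVA NPs over soluble OVA in PP, *Bcl2a1d* had a log2 fold change of 0.33 ± 0.17 (adjusted p = 0.175), with overlapping groups. Of the other 4 anti-apoptotic genes (*Bcl2l2*, *Bcl2a1a*, *Bcl2a1d*, and *Bcl2l10*), 3 were tested, and 2 fell with soluble OVA and 1 (*Bcl2a1a*, 0.79 ± 0.22, adjusted p = 0.0253) was higher with OVA NPs than with soluble OVA in PP, with 0 changed by either treatment in spleen.

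**Figure D4:**
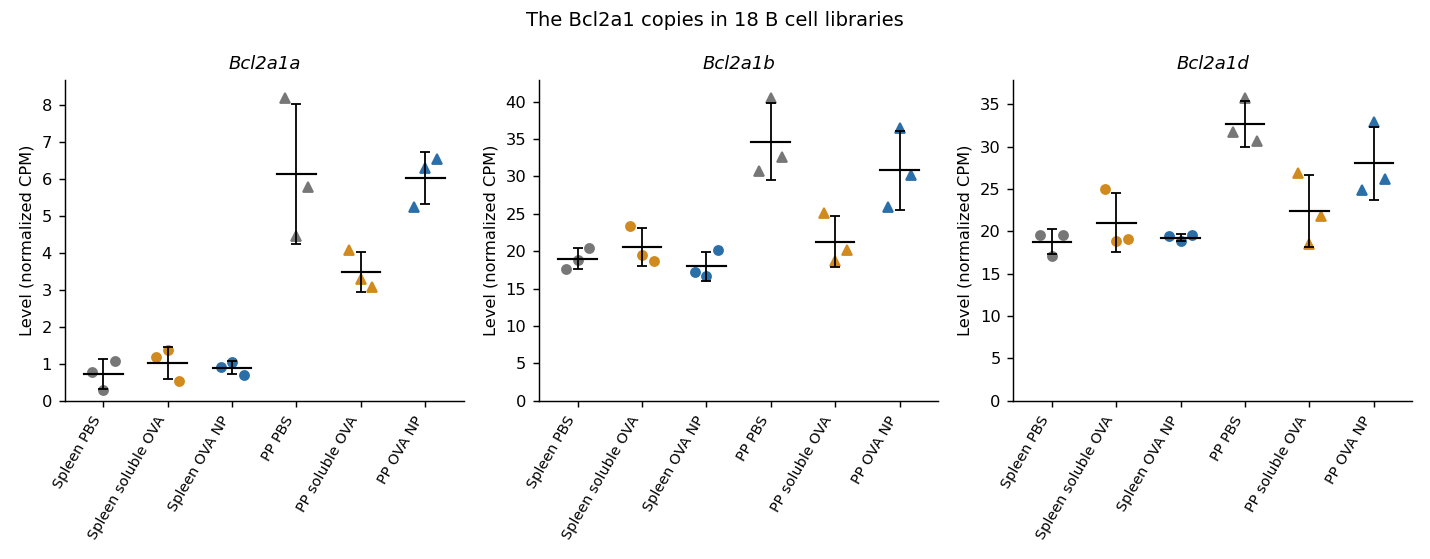
Levels of the A1 copies *Bcl2a1a*, *Bcl2a1b*, and *Bcl2a1d* in normalized CPM (y axes, each from 0) in the 6 groups (x axes), with points for libraries, horizontal bars for means, and vertical bars for SD (n = 3). *Bcl2a1a* lies at or below 1.37 in spleen and at or above 3.09 in PP.

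*Bax*, a pore former, passed in 0 of the 11 comparisons. Spleen levels were 68.3, 60.4, and 70.6 normalized CPM with PBS, 99.5, 73.3, and 75.7 with soluble OVA, and 78.2, 73.8, and 72.2 with OVA NPs. Both treated groups lay above PBS without overlap. The log2 fold change with soluble OVA was 0.32 ± 0.11 (adjusted p = 0.0552), which passed in DESeq2 (adjusted p = 0.0161) and, at 0.41, without soluble OVA replicate 2 (adjusted p = 0.0266). With OVA NPs it was 0.17 ± 0.066 (adjusted p = 0.0754). In PP all 9 libraries lay between 72.1 and 89.3, and the log2 fold changes were 0.053 ± 0.073 with OVA NPs and 0.038 ± 0.087 with soluble OVA.

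*Bcl2l11*, which encodes the activator BIM, also passed in 0 of 11, with wide spread in PP. Its PP levels were 49.2, 87.7, and 44.2 normalized CPM with PBS, 74.7, 57.4, and 53.4 with soluble OVA, and 32.7, 76.5, and 73.6 with OVA NPs, so 1 PBS library was high and 1 OVA NP library was low. The 95% interval for OVA NP over PBS in PP ran from -1.09 to 1.14. Spleen levels were 50.0, 48.8, and 49.0 with PBS, 37.8, 46.4, and 54.0 with soluble OVA, and 45.1, 49.0, and 50.4 with OVA NPs, with 95% intervals of -0.16 to 0.10 for OVA NPs and -0.34 to 0.14 for soluble OVA over PBS. The PBS library with high *Bcl2l11* was the shallowest of the 18.

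*Bbc3*, the gene of the p53 target PUMA, was low everywhere and passed in 0 of the 6 treatment comparisons. Spleen levels were 3.03, 3.46, and 3.71 normalized CPM with PBS, 4.00, 3.24, and 3.65 with soluble OVA, and 1.89, 3.46, and 2.57 with OVA NPs. PP levels were 7.87, 4.39, and 6.77 with PBS, 8.67, 6.70, and 7.98 with soluble OVA, and 6.34, 6.26, and 7.88 with OVA NPs. Treatment groups overlapped within each tissue, and every PP library lay above every spleen library. The log2 fold changes over PBS were -0.36 ± 0.25 and 0.10 ± 0.20 in spleen and 0.11 ± 0.24 and 0.27 ± 0.24 in PP, for OVA NPs and soluble OVA in turn.

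*Pmaip1*, the gene of NOXA, which neutralizes MCL1 and A1, fell with soluble OVA in both tissues and with OVA NPs in spleen. Spleen levels were 18.9, 22.6, and 20.8 normalized CPM with PBS, 15.9, 16.0, and 15.8 with soluble OVA, and 16.9, 16.6, and 17.4 with OVA NPs. All soluble OVA libraries lay below all OVA NP ones, which did not pass the test, and all treated libraries lay below all PBS libraries. The log2 fold change with OVA NPs was -0.28 ± 0.094 (adjusted p = 0.0439), and it no longer passed in DESeq2 (adjusted p = 0.0816) or when PBS replicate 2 or 3 or OVA NP replicate 1 or 2 was left out (adjusted p from 0.0887 to 0.183). With soluble OVA it was -0.39 ± 0.10 (adjusted p = 0.0111), lost without PBS replicate 2 (adjusted p = 0.0699). In a fit to all 18 libraries neither spleen call held (adjusted p = 0.396 and 0.209).

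PP levels of *Pmaip1* were 58.2, 79.8, and 71.4 normalized CPM with PBS, 43.9, 47.4, and 38.4 with soluble OVA, and 38.3, 70.2, and 69.9 with OVA NPs. Soluble OVA libraries lay below PBS libraries, and 1 OVA NP library, replicate 1, lay with them. The log2 fold change with soluble OVA was -0.70 ± 0.12 (adjusted p = 0.00361), a 1.62-fold decrease. OVA NPs over soluble OVA gave 0.47 ± 0.24 (adjusted p = 0.194), which passed at 0.64 without OVA NP replicate 1 (adjusted p = 0.00256) and in a fit to all 18 libraries (adjusted p = 0.0483). Genes of the response to dissociation, a list of 12 immediate-early and heat shock genes that includes *Fos*, moved in PP too. They summed to 3666 to 5824 normalized CPM in PBS, 2825 to 3385 in soluble OVA, and 4259 to 5061 in OVA NP PP, and 8 of 12 fell and 0 rose with soluble OVA. In spleen the same list summed to 792 to 807, 711 to 837, and 698 to 757, with 4 of 11 tested higher and 2 lower with OVA NPs and 1 of 11 higher and 0 lower with soluble OVA. *Fos* rose in spleen with OVA NPs (0.73 ± 0.17, adjusted p = 0.0108) and soluble OVA (0.75 ± 0.22, adjusted p = 0.0437). The part of this list in the *Pmaip1* and *Bcl2a1b* differences was not tested.

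Among 7 other pro-apoptotic genes (*Bak1*, *Bok*, *Bid*, *Bad*, *Bik*, *Bmf*, and *Hrk*), treatment moved the tested ones in both directions. *Bmf*, a BH3-only gene, fell with OVA NPs in spleen (-1.07 ± 0.10, adjusted p = 3.85e-05) and with soluble OVA in spleen (-1.64 ± 0.11, adjusted p = 6.55e-07) and PP (-1.15 ± 0.32, adjusted p = 0.0465). *Bak1*, the other pore former, rose in spleen with OVA NPs (0.41 ± 0.061, adjusted p = 0.000279) and soluble OVA (0.42 ± 0.064, adjusted p = 0.000458). In all, 2 of 4 tested rose and 1 fell with OVA NPs in spleen, 3 of 4 rose and 1 fell with soluble OVA in spleen, and 3 of 6 rose and 1 fell with soluble OVA in PP. *Bid* (0.69 ± 0.069, adjusted p = 0.000181) and *Bad* (0.54 ± 0.11, adjusted p = 0.00762), both of which link upstream signals to the mitochondrion, were among those that rose in PP. With OVA NPs in PP, 0 of 5 tested changed over PBS, and *Bid* (-0.80 ± 0.087), *Bad* (-0.63 ± 0.087), and *Bak1* (-0.52 ± 0.082) were lower than with soluble OVA (3 of 6, with 0 higher). The effect of OVA NPs was lower in PP than in spleen for *Bak1* (-0.52 ± 0.095, adjusted p = 0.00841) and *Bid* (-0.38 ± 0.10, adjusted p = 0.0374).

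Downstream, 10 caspase and apoptosome genes were tested, of which 1 rose with OVA NPs in spleen, 2 with soluble OVA in spleen, and 2 with soluble OVA in PP, with 0 lower. Over all genes, 8.60%, 10.5%, and 13.5% rose in these comparisons, so counts this small do not set the list apart. *Cycs*, which encodes cytochrome c, was the 1 of 10 that rose with OVA NPs in spleen (0.41 ± 0.067, adjusted p = 0.000627). With soluble OVA, *Cycs* (0.41 ± 0.068) rose in spleen, and *Cycs* (0.50 ± 0.10) and *Apaf1*, the apoptosome scaffold (0.45 ± 0.089), rose in PP. With OVA NPs in PP, 0 of 10 passed over PBS and 3 of 10 (*Casp9*, *Cycs*, and *Apaf1*) were lower than with soluble OVA. Of 14 p53 targets, a list that holds *Bax*, *Bbc3*, and *Pmaip1*, 2 of 13 tested rose and 1 fell with OVA NPs in spleen, and 2 rose and 3 fell with soluble OVA in PP. The shares over all genes were 8.60% higher and 6.35% lower in the first comparison, and 13.5% higher and 13.9% lower in the second. The death receptor *Fas*, which also belongs to the germinal center list, rose with OVA NPs (1.08 ± 0.18) and soluble OVA (1.53 ± 0.20) in spleen and with soluble OVA in PP (0.57 ± 0.10), and *Tnfrsf10b*, another death receptor, fell with soluble OVA in PP (-0.84 ± 0.22, adjusted p = 0.0209).

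Between tissues, PP B cells had lower *Bcl2*, *Mcl1*, and *Tnfrsf13b* and higher *Pmaip1*, *Bcl2l1*, and *Bbc3* than spleen B cells under each treatment. With PBS, 7 of the 10 genes differed (4 higher and 3 lower in PP), against 45.6% of all genes (25.5% higher and 20.1% lower). With soluble OVA, 6 differed (3 higher and 3 lower), against 51.1% (26.7% and 24.3%). With OVA NPs 7 differed (4 higher and 3 lower), against 37.1% (22.0% and 15.1%). Libraries of the tissues did not overlap for 8, 6, and 8 of the 10 genes, against 60.2%, 62.7%, and 54.6% of all genes.

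*Pmaip1* differed most with PBS, at 3.39-fold higher in PP (1.76 ± 0.12, n = 3 per group, adjusted p = 3.08e-06), and the log2 differences were 1.44 ± 0.10 with soluble OVA and 1.85 ± 0.23 with OVA NPs. *Bcl2l1*, higher in PP throughout, had log2 differences of 1.36 ± 0.29 with PBS, 1.54 ± 0.13 with soluble OVA, and 1.07 ± 0.15 with OVA NPs. *Bbc3* had 0.93 ± 0.26, 1.10 ± 0.20, and 1.42 ± 0.25 in the same order, and the PBS call was lost without PBS spleen replicate 1 or PBS PP replicate 1 (adjusted p = 0.0539 and 0.0611). *Bcl2a1b* was higher in PP with PBS (0.88 ± 0.11, adjusted p = 0.000126) and OVA NPs (0.82 ± 0.13, adjusted p = 0.000953), and with soluble OVA the log2 difference was 0.051 ± 0.14 (95% interval -0.25 to 0.36).

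*Mcl1* was 1.84-fold lower in PP than in spleen with PBS (-0.88 ± 0.057, adjusted p = 2.09e-06), 1.90-fold lower with soluble OVA, and 1.72-fold lower with OVA NPs (-0.78 ± 0.068, adjusted p = 3.02e-05). The highest PP library (643 normalized CPM) lay below the lowest spleen library (970.1). *Bcl2*, lower in PP throughout, had log2 differences of -0.77 ± 0.065 with PBS, -1.46 ± 0.093 with soluble OVA (adjusted p = 1.84e-06), and -0.38 ± 0.10 with OVA NPs (adjusted p = 0.0139), the last being lost without OVA NP PP replicate 2 or 3 (adjusted p = 0.0732 and 0.0647). *Tnfrsf13b* had -0.69 ± 0.052, -0.85 ± 0.067, and -0.54 ± 0.094 in the order PBS, soluble OVA, and OVA NPs. The receptor *Tnfrsf13c* had log2 differences of 0.14 ± 0.067, 0.059 ± 0.084, and -0.088 ± 0.059, none past the test, and *Bax* had 0.24 ± 0.080 with PBS (adjusted p = 0.0317, inside the fold change cutoff, and past both thresholds at 0.27 or 0.29 without PBS spleen replicate 3 or PBS PP replicate 2). *Bcl2l11* had 0.29 ± 0.26, 0.43 ± 0.17, and 0.38 ± 0.33, and it passed with OVA NPs when PP replicate 1 was left out (0.66, adjusted p = 2.43e-05) and with soluble OVA when spleen replicate 3 or PP replicate 3 was left out (adjusted p = 0.0345 and 0.0446) or in DESeq2 (adjusted p = 0.0145).

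**Figure D5:**
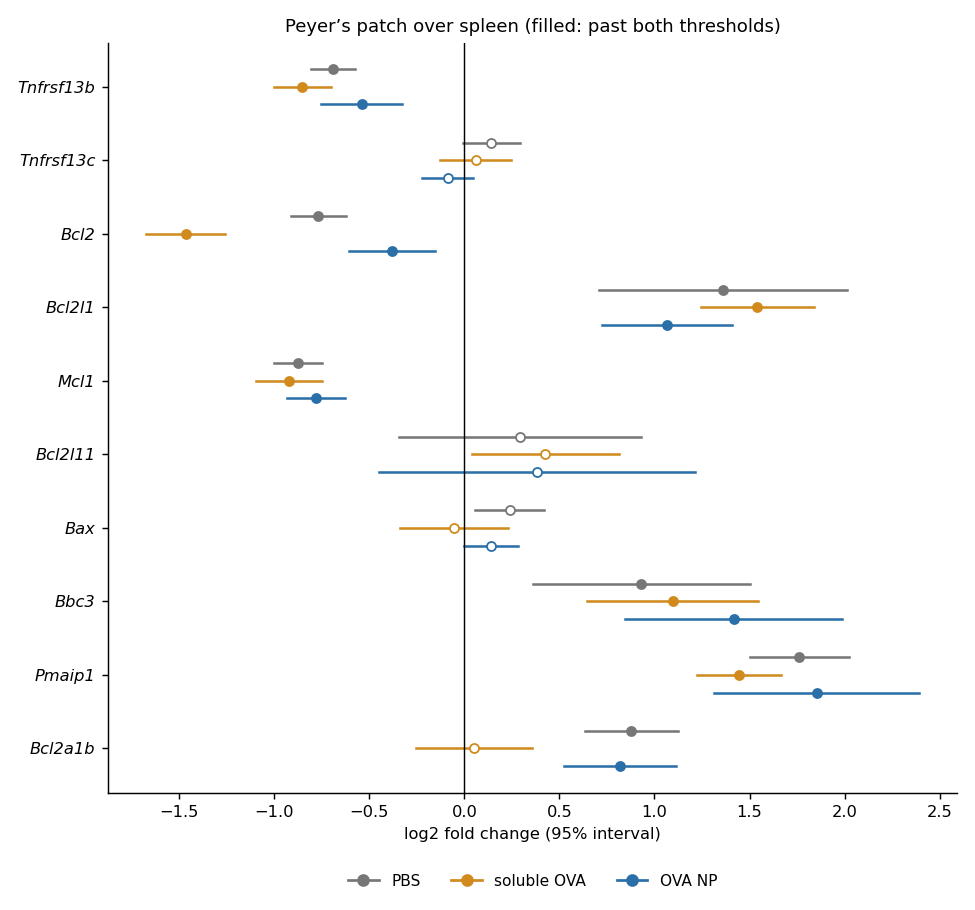
Log2 fold changes of PP over spleen (x axis) for the 10 genes (y axis) with PBS, soluble OVA, and OVA NPs, with 95% intervals as lines and filled points past both thresholds. *Pmaip1*, *Bcl2l1*, and *Bbc3* lie above 0 and *Mcl1*, *Bcl2*, and *Tnfrsf13b* below 0 with every treatment, and *Bcl2a1b* with soluble OVA lies at 0.051.

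Other cells and states also differed between the tissues. The shares of all genes higher and lower in PP were 25.5% and 20.1% with PBS. They were 26.7% and 24.3% with soluble OVA and 22.0% and 15.1% with OVA NPs. Beside these shares, small counts do not set a list apart. Germinal center markers were higher in PP for 10 of 10 genes under each treatment, dissociation response genes for 12 of 12 with PBS and OVA NPs and 11 of 12 with soluble OVA (1 lower), and T cell markers for 5 of 6 tested with PBS, 4 of 7 with soluble OVA, and 8 of 8 with OVA NPs. *Fos* was at 8.23 to 24.4 normalized CPM in spleen and 103 to 306 in PP, and *Cd3e*, a T cell receptor subunit, was at 0.346 to 1.87 and 0.979 to 5.75. Plasma cell markers summed to 429.6 to 684 in spleen and 986 to 1203 in PP (6 of 8 higher with PBS), and monocyte and macrophage markers to 40.5 to 229 and 106 to 251 (1 of 7 higher and 2 lower). B cell markers were lower in PP for 5 of 8 genes under each treatment. The part of these lists in the tissue differences was not tested. Of the list of BAFF and alternative NF-κB genes, 4 of 11 were lower and 1 higher in PP with PBS, led by *Nfkb2* (-0.38 ± 0.069) and *Traf3* (-0.38 ± 0.072), 6 were lower and 0 higher with soluble OVA, and 0 were lower and 1 higher (*Birc2*, 0.37 ± 0.088) with OVA NPs. Among p53 targets, 6 of 13 were higher and 1 lower in PP with PBS, and *Cdkn1a*, the cell cycle inhibitor, differed most (3.97 ± 0.29, from a mean of 0.712 to 10.9 normalized CPM). Of the other pro-apoptotic genes, 3 of 5 tested were higher and 1 lower in PP with PBS, 4 higher and 0 lower with soluble OVA, and 2 higher and 0 lower with OVA NPs. Among caspase and apoptosome genes, *Cycs* was higher (0.28 ± 0.069) and *Casp9* lower (-0.41 ± 0.10) in PP with PBS.

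Genes with the most similar pattern were searched for the 3 genes that varied most, among 9928 genes with a mean of at least 5 CPM. Likeness was the root mean square difference of log2(normalized CPM + 1), centred on each gene’s mean over the 18 libraries, where smaller is more alike. Nearest to *Bcl2* were *Dstyk* (0.0958), *Peg13* (0.102), and *Map3k1* (0.107). Nearest to *Pmaip1* were *Trib1* (0.194), *Rhob* (0.194), and *Cxcr4* (0.207), and nearest to *Bcl2l1* were *Ddah2* (0.190), *Sema7a* (0.195), and *Abr* (0.208). *Cxcr4* encodes a chemokine receptor that guides B cells within germinal centers. The 18 libraries share tissue and treatment groups, so these values are a description only.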

How the data were processed

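B cells from 18 mouse samples were sequenced by the authors as poly(A) RNA in 151 bp paired-end reads. The submitters’ processing notes name cutadapt 2.3, FastQC 0.11.8, STAR 2.7.8a, RSEM 1.3.3, and MultiQC 1.7. The authors deposited RSEM expected counts per gene in 1 table, in which 0 values were not whole numbers, and the authors tested them with DESeq2.

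Here, edgeR 4.0.16 in R 4.3.3 was applied to the deposited expected counts (TMM, default filterByExpr with a minimum count of 10 and total of 15, robust quasi-likelihood F test, two-sided). Each of 9 pairwise comparisons used its own 6 libraries, and each of 2 tissue by treatment tests used 12. Calls needed a Benjamini-Hochberg adjusted p under 0.05 over all tested genes and, between groups, an absolute log2 fold change above 0.25. Permutation of 3 against 3 libraries cannot give a two-sided p below 0.1, so no permutation test was used. Normalized CPM used TMM over 18 libraries, and levels per kb used merged exons of GENCODE M21. Promoter sequences came from RefSeq. The scripts were tested on simulated data.

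Each of the 10 genes was tested in every comparison, although not every log2 fold change of these genes is given here. From lists of other genes, called genes with a mean of at least 1 CPM were named, at most the 3 with the largest fold change per comparison, and defining markers were fixed by name. Values of some genes that this rule names are not reported here. The 10 genes and the lists were chosen with earlier results of these data known. Alternatives were DESeq2 1.42.0, DESeq2 size factors, no count filter, a replicate block, 1 fit to all libraries, each library left out, the longest transcript as length, and, chosen after seeing the data, *Bcl2a1a*, *Bcl2a1b*, and *Bcl2a1d* summed. Depth was 14177253 to 30052297 counts per library. Of 18 replicate pairs, 0 were identical, and each differed by more than sampling noise. The labels number biological replicates without saying whether equal numbers share a mouse or whether a library holds 1 mouse, so p values measure the spread between these samples.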

Additional observations from a re-analysis of the deposited data

Results flagged for a closer look

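The effect of soluble OVA differed between the tissues for 2 of the 10 genes, by a tissue by treatment test in 12 libraries (edgeR, adjusted over all genes). For *Bcl2* the log2 change from PBS was -1.10 in PP and -0.41 in spleen, a difference of -0.69 ± 0.12 (adjusted p = 0.00294), which held without each library in turn (from -0.75 to -0.61). For *Bcl2a1b* it was -0.71 in PP and 0.12 in spleen, a difference of -0.82 ± 0.19 (adjusted p = 0.0160), which no longer passed without PBS spleen replicate 1 or soluble OVA PP replicate 3. Over all genes 6.84% passed this test. Of the 10 germinal center markers, 6 had a lower log2 change in PP than in spleen, and of 12 dissociation response genes 6 did. Their part in these differences was not tested.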

How the results depend on the processing

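Of 651 values recomputed under settings other than leaving out a library, 627 kept their direction and side of the threshold, 12 newly passed, 6 no longer passed, and 6 changed sign. Calls of all genes moved by over 1.5 times in 5 comparisons. OVA NP over soluble OVA in spleen had 33 by edgeR, 113 by DESeq2, 230 without the count filter, and 14 in 1 fit to all libraries. OVA NP over PBS in PP had 0, 149, 146, and 24 in the same order. The tissue by OVA NP test gave 734 by edgeR and 1290 by DESeq2, and the tissue by soluble OVA test 1131 and 1817. Without the count filter, 1 of the 10 genes (*Bcl2*) passed the tissue by OVA NP test. Levels per kb moved for 34 of 60 gene and group values with the longest transcript. The sign changes concerned genes near 0 that were not called: *Bax* for OVA NP over soluble OVA in PP, at 0.00030, gave -0.0032 by DESeq2, -0.0030 with its size factors, -0.0039 without the filter, and -0.0099 in 1 fit, and *Mcl1* for tissue by soluble OVA gave 0.0010 without the filter. The cause was not tested.

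For libraries sharing a replicate number, deviations from the group mean were correlated, and the lowest pair correlation per comparison ran from -0.59 to 0.082. Between PP and spleen the pair correlations ran from 0.025 to 0.16 with PBS and from 0.082 to 0.11 with soluble OVA. With OVA NPs they ran from -0.29 to -0.063. Such values do not settle whether equal numbers share a mouse, and the numbers were not taken as pairs. With a replicate block, calls of all genes went from 4697 to 3119 for OVA NP over soluble OVA in PP and from 734 to 429 for tissue by OVA NP. The block ended the calls of *Pmaip1* for OVA NP over PBS in spleen (adjusted p = 0.0623) and *Bcl2a1b* for OVA NP over soluble OVA in PP (adjusted p = 0.111), added *Bax* for soluble OVA over PBS in spleen (adjusted p = 0.0181), and turned *Bcl2l11* for OVA NP over PBS in PP to -0.0049.

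With each library left out in turn, the number of the 10 genes called was 2 to 3 for OVA NP over PBS in spleen, 1 to 3 for soluble OVA over PBS in spleen, 4 to 5 for soluble OVA over PBS in PP, 2 to 5 for OVA NP over soluble OVA in PP, 6 to 8 for PP over spleen with PBS, 6 to 7 for PP over spleen with soluble OVA, 6 to 8 for PP over spleen with OVA NPs, and 1 to 2 for tissue by soluble OVA. It was 0 to 0 for the others. Calls of all genes were 1539 to 2889 for OVA NP over PBS in spleen, 1754 to 2472 for soluble OVA over PBS in spleen, 0 to 40 for OVA NP over soluble OVA in spleen, 0 to 8 for OVA NP over PBS in PP, 3107 to 4073 for soluble OVA over PBS in PP, 3581 to 4503 for OVA NP over soluble OVA in PP, 6375 to 7829 for PP over spleen with PBS, 7094 to 8248 for PP over spleen with soluble OVA, 4814 to 6276 for PP over spleen with OVA NPs, 291 to 945 for tissue by OVA NPs, and 655 to 1279 for tissue by soluble OVA. Log2 fold changes not called on all libraries changed sign in some of these fits. For OVA NP over PBS in spleen these were *Bcl2l11* from -0.056 to 0.012. For soluble OVA over PBS in spleen these were *Bcl2l11* from -0.23 to 0.041. For OVA NP over soluble OVA in spleen these were *Tnfrsf13c* from -0.071 to 0.0086, *Bcl2* from -0.070 to 0.065, *Bcl2l1* from -0.10 to 0.084, *Mcl1* from -0.0013 to 0.087, and *Bcl2l11* from -0.066 to 0.22. For OVA NP over PBS in PP these were *Bcl2* from -0.15 to 0.046, *Bcl2l1* from -0.12 to 0.39, *Mcl1* from -0.064 to 0.017, *Bcl2l11* from -0.16 to 0.39, *Bbc3* from -0.093 to 0.29, and *Pmaip1* from -0.35 to 0.0043. For soluble OVA over PBS in PP these were *Tnfrsf13c* from -0.044 to 0.11, *Bcl2l11* from -0.10 to 0.43, and *Bax* from -0.022 to 0.14. For OVA NP over soluble OVA in PP these were *Tnfrsf13b* from -0.0084 to 0.15, *Bcl2l11* from -0.26 to 0.22, and *Bax* from -0.079 to 0.10. For PP over spleen with PBS these were *Bcl2l11* from -0.051 to 0.46. For PP over spleen with soluble OVA these were *Tnfrsf13c* from -0.0054 to 0.11, *Bax* from -0.13 to 0.10, and *Bcl2a1b* from -0.072 to 0.15. For tissue by OVA NPs these were *Bcl2l1* from -0.50 to 0.0096, *Bcl2l11* from -0.088 to 0.43, *Pmaip1* from -0.040 to 0.32, and *Bcl2a1b* from -0.17 to 0.045. For tissue by soluble OVA these were *Tnfrsf13c* from -0.14 to 0.022, *Mcl1* from -0.067 to 0.028, *Bcl2l11* from -0.036 to 0.50, and *Bbc3* from -0.013 to 0.37.

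Low counts limit the precision of *Bbc3* and *Bcl2l1* in spleen and of *Bcl2a1a*, and 3 libraries per group limit small changes.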
